A study of Arabidopsis thaliana with 6 samples.

Results

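The regions described here are stretches of the nuclear *Arabidopsis* genome in which anti-FLAG ChIP-seq gave a peak in all 4 libraries, with and without the FLAG-tagged protein, and whose peak lay 1 to 3 kb from the start of a gene. Peaks of the 4 libraries that shared at least 1 bp were merged into 17347 regions, 2426 of which lay on chromosomes 1 to 5 and held a peak of every library. Of these 2426 regions, 498 (20.5%) were chosen by their peak calls and by the annotation of their CND1-FLAG replicate 1 peak with the lowest start as promoter at 1 to 2 kb (382 regions) or 2 to 3 kb (116 regions). The annotation calls anything within 3 kb of a gene start promoter, on either side of it, so the class name does not say that a region lies upstream. The choice used the peak calls of all 4 libraries and the distance to the start, and neither is given below as a finding.

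The libraries came from seedlings of 2 genotypes. The tagged plants carried pCND1-Flag in the cnd1-3 mutant background, and the untagged plants were Col-0. Tagged and untagged plants therefore differed in the cnd1-3 allele as well as in the tag. Each genotype had 2 ChIP libraries and 1 input, and the labels give the same anti-FLAG antibody for all. The labels do not explain which promoter or which stretch of DNA pCND1 stands for, do not say whether the line is a single clone, and do not say whether replicates came from separate plants, so p-values measure only the spread between these libraries. The inputs were not analysed here. The series title places CND1 in the upkeep of nuclear and chloroplast genome stability.

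In ChIP, chromatin is crosslinked and sheared, an antibody pulls down the fragments bound to its target, and the recovered DNA is set against input DNA. Plants without the tag offer the antibody no CND1-FLAG to bind, so a peak called in them arose without the tag. How much of the signal in tagged plants at such a place depends on the tag was not tested. Genes of *Arabidopsis* are short and closely spaced, and the stretch 1 to 3 kb from a start can be the end of that gene, another gene or an upstream control region.

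All 498 regions were accounted for in every list, since the rule required a peak in each. They held 2096 peaks, and 439 regions (88.2%) had 1 peak in each list. In 408 regions all peaks of all lists were annotated at 1 to 3 kb. In the other 90 regions at least 1 peak carried another feature, and 183 of the 211 peaks concerned were annotated within 1 kb of a start. The strongest CND1-FLAG replicate 1 peak was itself at 1 to 3 kb in 482 regions and was not in 16. The regions were assigned to 491 genes, 461 regions to protein-coding genes, 22 to lncRNA genes, 7 to miRNA genes and 5 to other ncRNA genes, with 1 each at an snRNA, an snoRNA and a tRNA gene.

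Most of the regions were classed to the body of their assigned gene, but a smaller share than of the other regions of all 4 lists. The distance of the CND1-FLAG replicate 1 peak that placed a region set whether it was upstream. Any other region counted as gene body if it shared a base with the assigned gene, so it can also reach past the gene's end. On this count 275 regions (55.2%) were in the body of the assigned gene, 77 (15.5%) lay past its end, and 146 (29.3%) lay upstream of its start. Among the other 1928 regions of all 4 lists, 77.9% were in the gene body, 5.45% lay past its end and 16.7% lay upstream. The rule keeps peaks at least 1 kb from the start. The midpoints of the gene body regions lay at a median of 68.6% of the gene's length, and 83 of the 275 were in its last 25%. The regions past the end were a median of 455 bp beyond it, with a range of 13 to 2414 bp. The median distance was 1527 bp before the start for the upstream regions and 1541 bp after it for the others.

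**Figure D1:**
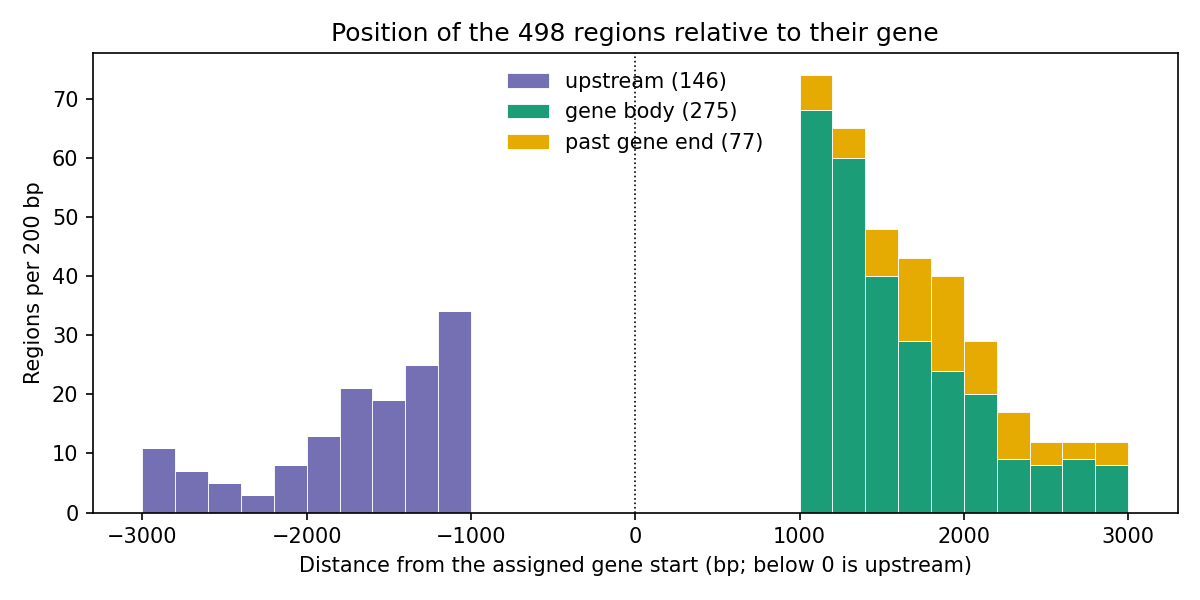
Signed distance in bp from the assigned gene start to the CND1-FLAG replicate 1 peak that placed each of the 498 regions. The histogram has bins of 200 bp, with colours for regions upstream (146), in the gene body (275) and past the gene end (77). The numbers are highest next to the limit of 1000 bp on both sides. They are 74 regions at 1000 to 1200 bp downstream against 34 at the same distance upstream. No plotted distance is under 1000 bp because of the rule, although 7 of the regions overlap the assigned start.

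The assigned gene was often not the only gene there. Of the 146 upstream regions, 123 overlapped another annotated gene, as did 66 of the 77 regions past a gene end, so the gene named for a region need not be the gene it covers. Over all regions, 204 (41.0%) overlapped a gene other than the assigned one, against 30.5% of the other regions of all 4 lists. The region of MORC7, which acts in gene silencing, overlapped the neighbouring gene HVA22D, and the region of the lncRNA gene AT5G01255 overlapped NHL3, which takes part in defence, and AtPOT1b.

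The regions were spread over the chromosomes much like the other regions called in all 4 lists. Chromosome 1 held 128 (25.7%, against 25.1% of the others), chromosome 2 held 71 (14.3%, against 15.4%), chromosome 3 held 106 (21.3%, against 19.0%), chromosome 4 held 62 (12.4%, against 16.5%) and chromosome 5 held 131 (26.3%, against 24.1%). The pericentromeres held 16.1% of the regions and 15.4% of the others. Median width was 774 bp (range 412 to 3432 bp), against 787.5 bp in the others.

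Enrichment in these regions was modest in both genotypes. The fold enrichment of a region in a library is the highest summit value there, the ChIP fragment number over the local background as the authors' peak caller gave it. Median fold over the 498 regions was 1.996 in CND1-FLAG replicate 1 and 1.95 in CND1-FLAG replicate 2, against 1.71 in Col-0 replicate 1 and 1.69 in Col-0 replicate 2. Both tagged libraries lay above both Col-0 libraries. The mean of the medians was 1.97 ± 0.032 in CND1-FLAG and 1.70 ± 0.013 in Col-0 (SD over 2 libraries each). The difference was 0.276, with a two-sided exact permutation p of 0.333, the smallest that 2 against 2 libraries allow. The difference was 0.483 at a −log10 q of at least 5, 0.459 at a fold of at least 2 and 0.548 with lists of equal length. The q and fold settings select peaks by strength, and equal length drops more peaks from the longer CND1-FLAG lists. These values can therefore not be read apart from the cut. A fold of at least 2 in all 4 libraries was reached by 39 regions (7.83%), against 15.2% of the other regions of all 4 lists.

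The whole fold scale was higher in the tagged lists, and most of this difference was shared with it. Over all their peaks the lists had a median fold of 1.92 and 1.91 in CND1-FLAG and 1.66 and 1.66 in Col-0. Divided by the median of its own list, the regions' median was 1.04 and 1.02 in the CND1-FLAG libraries and 1.03 and 1.02 in the Col-0 libraries. On this scale the genotypes overlapped, at 1.03 ± 0.010 in CND1-FLAG and 1.02 ± 0.0078 in Col-0 (SD over 2 libraries each), and their difference of 0.0094 had an exact two-sided permutation p of 0.667. The sign of this small difference turned without either CND1-FLAG replicate (-0.00426 and -0.00714). It was 0.129 at a −log10 q of at least 5 and 0.181 at a fold of at least 2, both cuts on peak strength. At these cuts the genotypes did not overlap (exact permutation p = 0.333 for both). The regions sat near the middle of every list, at a median percentile of 58.5 and 55.5 among all peaks of the CND1-FLAG lists and 58.3 and 55.0 among those of the Col-0 lists.

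**Figure D2:**
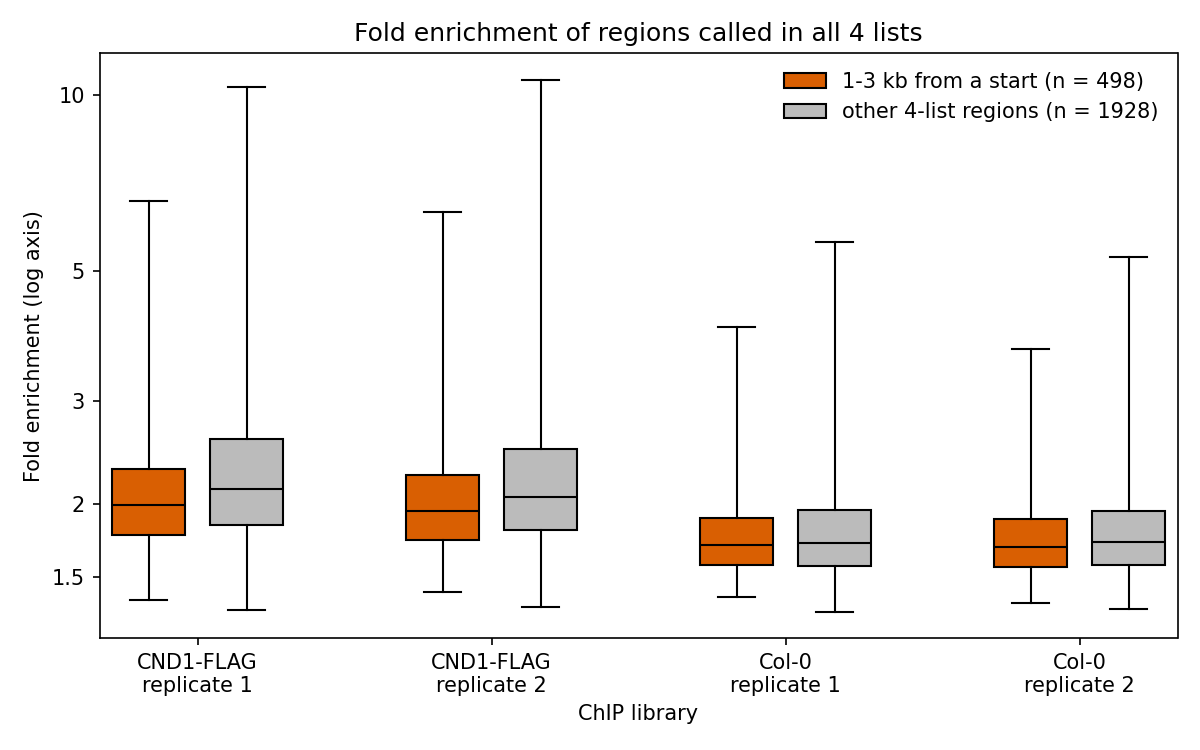
Fold enrichment (log axis) in each of the 4 ChIP libraries for the 498 regions 1 to 3 kb from a start (orange, left) and the other 1928 regions called in all 4 lists (grey, right). Boxes span the quartiles with the median as a line, and whiskers reach the lowest and highest region. The medians of the 498 regions are 1.996 and 1.95 in CND1-FLAG and 1.71 and 1.69 in Col-0, below the other regions' median in each library.

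The peaks at 1 to 3 kb were lower than those of the other 4-list regions, and the gap was wider in the tagged libraries. The other regions had a median fold of 2.12 and 2.06 in CND1-FLAG and 1.72 and 1.72 in Col-0. The difference of medians, regions at 1 to 3 kb minus the others, was -0.128 and -0.110 in CND1-FLAG and -0.0136 and -0.0342 in Col-0, and so had the same sign in 4 of 4 libraries. Its mean was -0.0714 ± 0.056 (SD, n = 4 libraries), with an exact two-sided sign-flip permutation p of 0.125, the smallest that 4 libraries allow, and 0.188 after Benjamini-Hochberg adjustment over the 6 such contrasts made. This mean was -0.144 at a −log10 q of at least 5 and -0.407 at a fold of at least 2, both cuts on peak strength. The gap itself was -0.119 ± 0.013 in CND1-FLAG and -0.0239 ± 0.015 in Col-0 (SD, n = 2 each), and these did not overlap (exact permutation p = 0.333, the smallest possible).

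In all 4 libraries the median fold of 4-list regions was lower at longer distances from the start, up to 1 kb. The fall was larger in the tagged libraries. Distance here is that of the CND1-FLAG replicate 1 peak with the lowest start, so other parts of a region can lie nearer. Where that peak overlapped the start, the median fold was 2.40 and 2.26 in CND1-FLAG and 1.78 and 1.73 in Col-0 over 339 regions. At 1 to 500 bp it was 2.14 and 2.07 in CND1-FLAG and 1.72 and 1.73 in Col-0, and above 500 and up to 1000 bp 2.03 and 2.01 in CND1-FLAG and 1.70 and 1.72 in Col-0. Within the 498 regions there was no further order: 1.98 and 1.93 in CND1-FLAG and 1.69 and 1.69 in Col-0 at 1 to 1.5 kb, 2.04 and 1.96 in CND1-FLAG and 1.72 and 1.69 in Col-0 at 1.5 to 2 kb, and 1.95 and 1.99 in CND1-FLAG and 1.74 and 1.69 in Col-0 at 2 to 3 kb. Beyond 3 kb the median was 1.92 and 1.88 in CND1-FLAG and 1.70 and 1.68 in Col-0. Both genotypes thus fell from the start to 1 kb, Col-0 by less (1.78 to 1.70 and 1.73 to 1.72) than CND1-FLAG. The Col-0 medians lay between 1.68 and 1.78 at every distance.

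**Figure D3:**
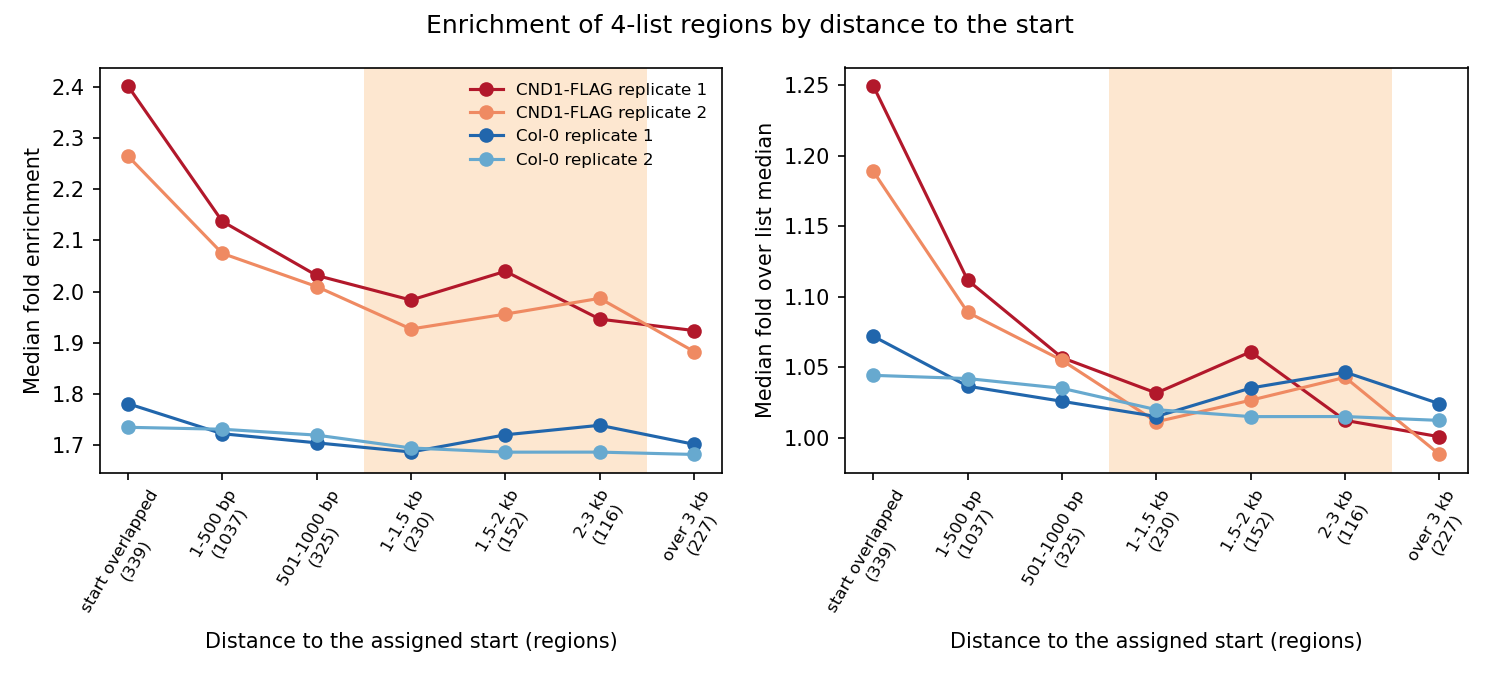
Median fold enrichment (left) and median fold divided by the library's own list median (right) of all 2426 regions called in all 4 lists, by distance to the assigned start, 1 line per library, with the bins at 1 to 3 kb shaded. The CND1-FLAG lines fall from 2.40 and 2.26 at the start to 1.98 and 1.93 at 1 to 1.5 kb. The Col-0 lines fall less, from 1.78 and 1.73 to 1.69 and 1.69, and stay between 1.68 and 1.78.

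The 169 regions of all 4 lists annotated as distal intergenic were slightly lower still. The 498 regions were higher than them by 0.0724 and 0.0522 in the CND1-FLAG libraries and by 0.0102 and 0.0225 in the Col-0 libraries, a mean of 0.0393 ± 0.028 (SD, n = 4 libraries; exact sign-flip permutation p = 0.125, 0.188 adjusted over the 6 contrasts). These distal regions differ in place too, since 83.4% of them lay in a pericentromere, against 16.1% of the 498.

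Among the 498, the regions past a gene end were the most enriched. Their median fold was 2.15 and 2.06 in CND1-FLAG and 1.76 and 1.74 in Col-0, above the regions in gene bodies (1.97 and 1.96 in CND1-FLAG and 1.71 and 1.68 in Col-0) in 4 of 4 libraries. The mean difference was 0.0979 (exact sign-flip permutation p = 0.125, 0.188 adjusted over the 6 contrasts), in a contrast chosen after its values were seen. Upstream regions, at 1.99 and 1.91 in CND1-FLAG and 1.68 and 1.69 in Col-0, did not differ in a consistent direction from those in gene bodies (mean difference -0.0114, exact permutation p = 0.5). The 80 pericentromeric regions had a median of 1.94 and 1.94 in CND1-FLAG and 1.81 and 1.72 in Col-0, against 2.02 and 1.96 in CND1-FLAG and 1.70 and 1.68 in Col-0 for the 418 outside. The pericentromeric regions were thus lower than the others in both tagged libraries and higher in both Col-0 libraries, a split chosen after its values were seen (difference of the 2 genotypes' gaps -0.128, exact permutation p = 0.333, the smallest possible).

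Region by region, the tagged fold was usually but not always the higher one. The folds compared can come from different summits of a region. The strongest summits of the 4 lists lay within 100 bp in 196 of the 498 regions (39.4%, against 45.9% of the other 1928). Both CND1-FLAG folds exceeded both Col-0 folds in 300 of the 498 regions (60.2%), where the share over all 2426 regions of all 4 lists was 67.8%. The regions come from the same 4 libraries and are not independent, so these shares are descriptions without a test. Both Col-0 folds exceeded both CND1-FLAG folds in 38 regions (7.63%), where the share over all 2426 was 6.6%. In the remaining 160 the genotypes overlapped. Relative to the list medians, 149 regions (29.9%) were higher in both tagged libraries, where the share over all 2426 was 40.3%, and 132 (26.5%) were higher in both Col-0 libraries, where it was 23.5%. On that scale the 2 directions were nearly equal in number among the 498 regions, unlike among the other 1928 (42.9% and 22.7%).

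The replicates of a genotype were closer to each other than to the other genotype. The median difference of log2 fold within a region was 0.14 between the CND1-FLAG replicates and 0.089 between the Col-0 replicates. It was 0.24 to 0.26 for a tagged library set against a Col-0 library. These folds were not divided by the list medians, which alone differ by 0.20 on this scale between the genotypes. Across the 498 regions, Pearson's r of log2 fold was 0.81 for the tagged pair, 0.78 for the Col-0 pair and 0.41 to 0.49 between genotypes, given as a description since the regions are not independent and libraries of a genotype may share an input.

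**Figure D4:**
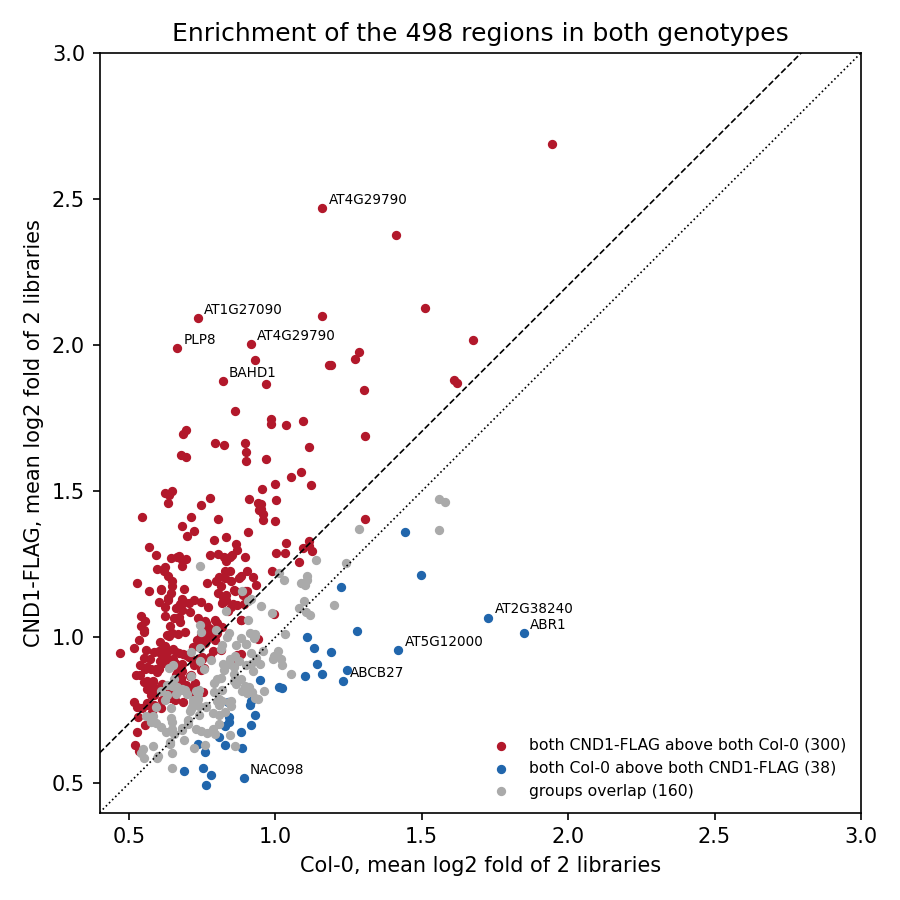
Mean log2 fold enrichment of the 2 CND1-FLAG libraries against that of the 2 Col-0 libraries, 1 point per region (n = 498), coloured by whether the 2 genotypes overlap. The dotted line marks equal fold and the dashed line the difference of the list medians (0.20 on the log2 scale). 300 regions have both tagged libraries higher, 38 have both Col-0 libraries higher, and the 5 regions with the highest and the 5 with the lowest difference are named.

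The strongest regions of the set were assigned to genes of varied function. The region ranked first, chr1:170581-173029 on TAIR10, at LEA14, a late embryogenesis abundant protein linked to desiccation, had a fold of 6.59 and 6.31 in CND1-FLAG and 4.01 and 3.69 in Col-0. This region is 2449 bp wide, its strongest peak overlapped the start, and its place in the set rests on another peak 1001 bp from the start. The strongest CND1-FLAG replicate 1 peak also lay at the start in the regions of AT5G01255, AT1G02405 and AT4G36648, so their height too belongs to a peak nearer than 1 kb. The region chr1:5699735-5700343, 1837 bp upstream of AT1G16680, a gene matched to a human DnaJ co-chaperone, had 3.94 and 4.17 in CND1-FLAG and 3.21 and 3.18 in Col-0. BAM1, a chloroplast beta-amylase of starch breakdown, had a region 1769 bp into the gene (chr3:8642764-8644386) with 4.50 and 4.24 in CND1-FLAG and 2.92 and 2.79 in Col-0. In each of these 3 the tagged libraries were above the untagged ones without overlap, and the untagged values alone were among the highest of the set.

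Genes of enzymes and transporters followed. AT3G55430, matched to a wheat beta-1,3-glucanase, an enzyme that cuts callose-type glucans, had a region at chr3:20549623-20550914 with a fold of 5.33 and 5.06 in CND1-FLAG and 2.81 and 2.52 in Col-0. STP1, a proton-coupled monosaccharide importer, had 3.84 and 3.48 in CND1-FLAG and 3.12 and 3.03 in Col-0, at chr1:3778814-3780291 in the gene body. The genotypes differed far more at AT3G55430 (0.97 on the log2 scale) than at STP1 (0.25), where the difference was close to that of the list medians (0.20). AT1G48010, matched to a pectinesterase inhibitor of the cell wall, had 3.20 and 3.24 in CND1-FLAG and 2.44 and 2.51 in Col-0, in a region past the gene's end. TAR1, a relative of the tryptophan aminotransferase of auxin synthesis, had a region 2795 bp upstream (chr1:8278098-8278729) with 3.56 and 3.81 in CND1-FLAG and 3.06 and 3.05 in Col-0.

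Genes of protein turnover and RNA handling were also among the leading 20. TOL7, a ubiquitin-binding protein of endosomal sorting, had a fold of 4.69 and 3.91 in CND1-FLAG and 2.23 and 2.24 in Col-0. Its region also overlapped RAPTOR2, and the summits of the libraries there were spread over 694 bp. UBP1B, an RNA-binding protein of stress granules, had 2.92 and 3.39 in CND1-FLAG and 2.16 and 2.17 in Col-0. PUB17, a U-box ubiquitin ligase of the defence response, had 2.94 and 2.98 in CND1-FLAG and 2.14 and 2.11 in Col-0. All 3 had both tagged folds above both Col-0 folds. MORC7 followed with 2.96 and 2.79 in CND1-FLAG and 2.08 and 2.28 in Col-0. The plastid lipase gene PLIP2 had 4.02 and 3.63 in CND1-FLAG and 2.22 and 2.32 in Col-0.

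At 2 of the leading 20 the tagged libraries were not above Col-0. WRKY48, a transcription factor of the defence response, had 2.70 and 2.82 in CND1-FLAG and 2.69 and 3.32 in Col-0, and these overlapped. AT4G36648, a non-coding RNA gene, had 2.63 and 2.504 in CND1-FLAG and 2.72 and 2.72 in Col-0, with both Col-0 values higher. AT5G21940, whose region past the gene's end also overlapped the copper transporter gene PAA2, had nearly the same fold in every library. It had 2.65 and 2.64 in CND1-FLAG and 2.49 and 2.46 in Col-0, from summits spread over 500 bp.

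**Figure D5:**
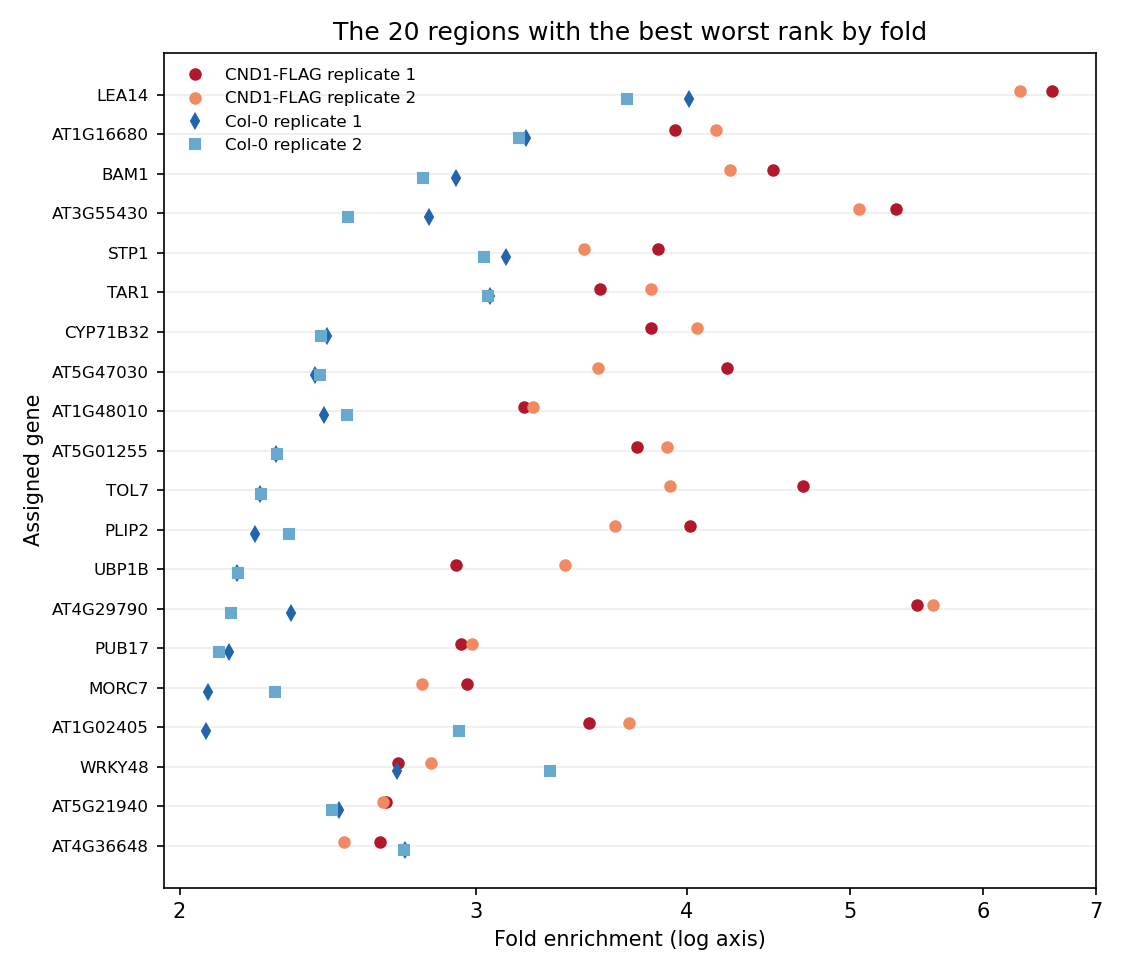
Fold enrichment (log axis) in each of the 4 libraries for the 20 regions whose worst rank by fold over the lists was best, named by the assigned gene and ordered by that rank from the top. CND1-FLAG points (circles) lie right of both Col-0 points (diamond and square) except at WRKY48, where the groups overlap, and AT4G36648, where both Col-0 points are higher.

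Of the 5 regions with the highest difference between genotypes, 3 lay next to each other on chromosome 4. A pair of them belonged to AT4G29790, which the files give no function, at 1343 bp (chr4:14584088-14585130) and 2539 bp (chr4:14585319-14587582) from its start, and the third lay past the end of PLP8, a patatin-like protein, at chr4:14588777-14590436, and overlapped AT4G29790 as well. All 3 thus covered parts of 1 gene. The first had a fold of 3.80 and 4.22 in CND1-FLAG and 1.91 and 1.87 in Col-0, a difference of 1.09 on the log2 scale. The second had 5.48 and 5.601 in CND1-FLAG and 2.33 and 2.14 in Col-0, a difference of 1.31. The third had 3.88 and 4.06 in CND1-FLAG and 1.67 and 1.504 in Col-0, a difference of 1.32. In all 3 both tagged folds were above both Col-0 folds, which follows largely from their choice by this difference.

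These 3 were part of a longer run of 7 neighbouring regions called in all 4 lists, over 12.9 kb from chr4:14579498 to 14592371, looked at after these values were seen. The 4 regions that are not of the 498 lay within 1 kb of a start. The first of them, at AT4G29780, had 7.64 and 7.54 in CND1-FLAG and 3.44 and 3.32 in Col-0. Differences over the run ranged from 0.61 to 1.32 on the log2 scale, against a median of 0.21 over the 498 regions. Both tagged folds were above both Col-0 folds in all 7, as in 67.8% of all 2426 regions of all 4 lists.

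The other 2 regions with the highest difference lay upstream of their assigned genes. The region 1013 bp upstream of AT1G27090 (chr1:9407382-9408561) had a fold of 4.13 and 4.40 in CND1-FLAG and 1.70 and 1.63 in Col-0, a difference of 1.36 on the log2 scale, and overlapped AT1G27100. The region 2241 bp upstream of the acyltransferase gene BAHD1 (AT5G47980; chr5:19426028-19426661) had 3.57 and 3.77 in CND1-FLAG and 1.59 and 1.96 in Col-0. At both the tagged values were above the untagged ones, and these regions too were chosen by their difference.

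At the other end, a few regions were stronger in untagged plants. Those named here were chosen as the lowest differences, so their direction follows from that choice. ABR1, an AP2/ERF transcription factor that represses abscisic acid responses, had a region 1412 bp from its start (chr5:25892745-25894307) with a fold of 2.18 and 1.87 in CND1-FLAG and 3.70 and 3.4996 in Col-0, a difference of -0.83 on the log2 scale. This region also overlapped RPN5B, a proteasome subunit gene. AT2G38240, a probable 2-oxoglutarate-dependent dioxygenase, had 2.31 and 1.90 in CND1-FLAG and 3.31 and 3.32 in Col-0 (chr2:16012668-16013667), a difference of -0.66. Both regions were in gene bodies, and in both the groups did not overlap although the tagged fold scale as a whole was the higher one.

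The next 3 were smaller. The region upstream of AT5G12000, matched to a U-box protein, had 2.11 and 1.78 in CND1-FLAG and 2.58 and 2.78 in Col-0. It overlapped AT5G12010, and its strongest CND1-FLAG replicate 1 peak lay 263 bp from the start of that gene. The region upstream of ABCB27, an ABC transporter of aluminium tolerance, had 1.601 and 2.03 in CND1-FLAG and 2.26 and 2.44 in Col-0. The boundary gene CUP-SHAPED COTYLEDON 2 (NAC098) had 1.42 and 1.45 in CND1-FLAG and 2.06 and 1.68 in Col-0. None of these 3 overlapped between genotypes, and they too were chosen by their difference.

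Genes were sorted by keywords in their product descriptions, which come largely from best protein matches and in places from other species. Ribosome and translation genes held 15 of the 498 regions (3.01%), against 0.985% of the other regions of all 4 lists, and transport genes held 26 (5.22%, against 2.75%). Protein kinases and phosphatases held 31 (6.22%, against 4.46%) and heat and stress proteins 11 (2.21%, against 1.24%). Transcription factors held 19 (3.82%, against 5.86%), hormone response genes 8 (1.61%, against 2.70%), photosynthesis and chloroplast genes 24 (4.82%, against 5.71%) and genes with no described function 84 (16.9%, against 21.5%). These are counts by assigned gene, with no test, and a region need not overlap that gene. In the gene body were 7 of the 15 ribosome and translation regions and 15 of the 26 transport regions. For the counts by genotype that follow, the shares over all 2426 regions were 67.8% with both tagged folds higher and 6.6% with both Col-0 folds higher, and relative to the list medians 40.3% and 23.5%.

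The 19 transcription factor regions were close to the whole set. Their median fold was 1.96 and 1.99 in CND1-FLAG and 1.73 and 1.74 in Col-0, and both tagged folds exceeded both Col-0 folds in 12 of them (63.2%, against 60.2% of the 498). Relative to the list medians, 7 were higher in both tagged libraries and 7 in both Col-0 libraries. Besides WRKY48 and ABR1 they included HSFA1B, a master activator of the heat response, with 2.97 and 2.35 in CND1-FLAG and 1.90 and 1.98 in Col-0, and WRKY31, with 2.52 and 2.48 in CND1-FLAG and 1.85 and 1.79 in Col-0. Both of these were higher in each tagged library.

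Of the 31 kinase and phosphatase regions, 24 (77.4%) had both tagged folds above both Col-0 folds and none the reverse, with 73.3% among the 86 other regions of all 4 lists at such genes. Relative to the list medians these counts were 13 and 4. The list is broad, and includes IP5P2, an inositol polyphosphate phosphatase, with 2.89 and 2.52 in CND1-FLAG and 1.98 and 1.88 in Col-0, and the shikimate kinase-like gene SKL1, with 2.65 and 2.28 in CND1-FLAG and 1.94 and 1.72 in Col-0. AT3G56050, an inactive receptor-like kinase by its description, was level across the genotypes, with 2.20 and 2.16 in CND1-FLAG and 2.11 and 2.17 in Col-0. Of the 6 calcium regions 5 were higher in both tagged libraries, as were 20 of the 21 other regions of all 4 lists at such genes. CML20, a calcium-binding protein, had 2.83 and 2.46 in CND1-FLAG and 2.11 and 1.89 in Col-0, whereas ACA12, a plasma membrane calcium pump, had 1.92 and 1.88 in CND1-FLAG and 1.90 and 2.16 in Col-0, which overlap. The strongest CND1-FLAG replicate 1 peak in the ACA12 region lay 169 bp from the start.

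The 24 regions at photosynthesis and chloroplast genes had a median of 2.09 and 1.95 in CND1-FLAG and 1.75 and 1.67 in Col-0, and in 13 of them (54.2%) both tagged folds were the higher ones. Relative to the list medians, 8 were higher in both tagged libraries and 8 in both Col-0 libraries. The keywords for DNA repair and chromatin found 2 regions, both outside the gene named. They do not reach every such gene, and left out MORC7, given above as acting in gene silencing. The region past the end of AT3G10605, a mitochondrial homologue of the RecA recombinase, had 2.28 and 2.16 in CND1-FLAG and 1.76 and 1.74 in Col-0, and overlapped AT3G10600. The region upstream of AT2G14825, matched to a human histone deacetylase, had 2.17 and 1.63 in CND1-FLAG and 1.81 and 2.05 in Col-0, which overlap.

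The 26 transport regions had a median of 2.06 and 2.01 in CND1-FLAG and 1.75 and 1.66 in Col-0, with both tagged folds higher in 15 (57.7%) and both Col-0 folds higher in 4 (15.4%), and relative to the list medians with 7 in each direction. PIP2-6, an aquaporin, had 3.25 and 2.84 in CND1-FLAG and 1.90 and 1.82 in Col-0, without overlap. ABCG36, an exporter of defence compounds, had 2.54 and 2.25 in CND1-FLAG and 2.08 and 2.15 in Col-0. The 15 ribosome and translation regions were lower in median than these, with a median of 1.93 and 1.84 in CND1-FLAG and 1.57 and 1.61 in Col-0. RPS3C, a protein of the small ribosomal subunit, was higher in untagged plants, at 1.98 and 1.78 in CND1-FLAG and 2.13 and 2.29 in Col-0, and its region lay upstream of the gene over a second annotated locus.

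The 13 cell wall regions included the longest of the set, 3432 bp at CSLD2, a cellulose synthase-like protein (chr5:5561670-5565101), with 2.75 and 2.8002 in CND1-FLAG and 1.87 and 1.89 in Col-0. LRX2, a leucine-rich repeat extensin of the cell wall, had 2.29 and 2.07 in CND1-FLAG and 1.84 and 1.70 in Col-0. Both were higher in each tagged library. Of the 22 ubiquitin regions, 14 (63.6%) were higher in both tagged libraries and 3 (13.6%) in both Col-0 libraries, and relative to the list medians 10 and 5. The region past the end of the F-box gene AT5G15660 varied widely within each genotype, at 3.16 and 2.11 in CND1-FLAG and 2.56 and 3.40 in Col-0, and overlapped between genotypes.

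Among the 8 hormone response regions, the direction between genotypes depended on the scale. Their median was 1.999 and 1.90 in CND1-FLAG and 1.86 and 1.84 in Col-0, with both tagged folds higher in 3 of them (37.5%). Divided by the list medians, it was 1.04 and 0.999 in CND1-FLAG and 1.12 and 1.105 in Col-0, with 1 region higher in both tagged libraries and 4 in both Col-0 libraries. The gibberellin oxidase-like gene AT5G51310 had 3.08 and 3.63 in CND1-FLAG and 1.96 and 2.34 in Col-0. ARF23, a putative auxin response factor, had 1.93 and 1.94 in CND1-FLAG and 1.91 and 1.98 in Col-0, which overlap.

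Non-coding RNA genes were the assigned gene of 37 regions (7.43%, against 9.70% of the other regions of all 4 lists), 27 of them upstream of the start. Their median was 2.08 and 1.87 in CND1-FLAG and 1.70 and 1.73 in Col-0. The 7 regions assigned to miRNA genes were classed as upstream (5) or past the gene's end (2). They were low, with a median of 1.83 and 1.79 in CND1-FLAG and 1.76 and 1.70 in Col-0 and a highest fold of 2.28. In 3 of them (42.9%) both tagged folds were above both Col-0 folds. Relative to the list medians, none was higher in both tagged libraries and 3 were higher in both Col-0 libraries.

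7 genes held 2 of the regions each. At CDC48A, an AAA ATPase that extracts ubiquitinated proteins, the region 1939 bp from the start had 2.001 and 1.95 in CND1-FLAG and 1.70 and 1.68 in Col-0. The region 2604 bp from it had 2.31 and 2.18 in CND1-FLAG and 1.59 and 1.46 in Col-0. Both were higher in the tagged libraries, and the farther one more so. At PAL3, a phenylalanine ammonia-lyase gene, the region at 1204 bp had 2.04 and 2.15 in CND1-FLAG and 1.58 and 1.61 in Col-0, whereas the one at 2326 bp had 1.94 and 1.73 in CND1-FLAG and 1.96 and 1.68 in Col-0, and overlapped. PP2A1, a catalytic subunit of protein phosphatase 2A, AT2G14378, AT4G15610, AT4G29790 and AT5G07340 were the others.

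Peaks called in both tagged libraries and in neither Col-0 library were also found at 1 to 3 kb, in 760 regions. These had a median fold of 1.92 and 1.90 in the CND1-FLAG libraries, a median width of 509 bp and 26.8% of their number upstream of the start, against a fold of 1.996 and 1.95, a width of 774 bp and 29.3% in the 498 regions. The 2 sets named 15 genes in common, which is 3.05% of the 491 genes of the 498 regions and 2.02% of the 743 genes of the 760. Of the 491 genes, 65 also had a region of all 4 lists within 1 kb of a start.

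The regions next to the limits of the class varied widely on both sides. Just inside 1000 bp, LEA14 at 1001 bp was the strongest region of the set, with the values given above. At 1002 bp, AT4G25620 had 2.90 and 2.59 in CND1-FLAG and 1.78 and 2.0998 in Col-0, and AT3G08125 had 1.80 and 1.61 in CND1-FLAG and 1.88 and 1.88 in Col-0. Just outside it, at 996 bp, MIR426 had 2.33 and 2.49 in CND1-FLAG and 1.61 and 1.63 in Col-0, and AT5G25530 had 1.72 and 1.71 in CND1-FLAG and 1.80 and 1.82 in Col-0. Strong and weak regions, and both directions between genotypes, thus occurred on either side of this limit. Just inside 3000 bp, AT3G44805 at 2998 bp had 2.23 and 2.27 in CND1-FLAG and 2.38 and 2.29 in Col-0. Just outside it, AT1G36675 at 3026 bp upstream had 1.66 and 1.79 in CND1-FLAG and 1.996 and 1.58 in Col-0.

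Depth sets how finely these folds can be read. At the strongest summit the 498 regions had a median of 86.5 and 77 fragments in the CND1-FLAG libraries and 140 and 138 in the Col-0 libraries, worked out from the fold and p columns, with ranges of 44 to 314 and 39 to 280 in CND1-FLAG and 83 to 383 and 82 to 368 in Col-0. The number of regions depended on the threshold, with 101 left when only peaks with a −log10 q of at least 5 were merged, 38 when only peaks with a fold of at least 2 were merged, and 200 when the lists were cut to equal length before merging. The count of 39 given above filtered the merged regions instead.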

How the data were processed

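The data are 4 anti-FLAG ChIP libraries of *Arabidopsis* seedlings, 2 of pCND1-Flag/cnd1-3 (CND1-FLAG) and 2 of Col-0, with groups taken from the labels. Tissue was fixed with 1% formaldehyde for 10 minutes, per the labels' protocols. Per the submitters' processing notes, fastp 0.19.11, BWA 0.7.12, MACS2 2.1.0 and TAIR10 were used; which input served each list is not given in the sources used here. Per the file headers, the authors deposited for each peak summit a ratio (fold enrichment over local background), p and q values as −log10, a score, positions counted from 1 and the assigned gene, feature and distance to its start. The lists held 13044 and 10538 peaks (CND1-FLAG) and 6152 and 5722 peaks (Col-0).

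Summits of 1 peak were combined, peaks sharing at least 1 bp were merged, and the strongest summit of each library gave a region its fold there. Fragments at a summit were solved from fold and p, and at least 99.8% of the 2426 strongest summits of a list came out whole, within 0.01 of a fragment in CND1-FLAG and within 0.05 in Col-0, whose ChIP values had been scaled by 0.723 and 0.739. Library medians were compared by exact permutation and sign-flip tests. The merging and the fragment solution were tested on simulated lists. Symbols, biotypes and overlapped genes come from a TAIR10.1 gene table of 38312 genes, in which all 12573 assigned nuclear genes were found by identifier, each with its deposited start and end inside the table's gene. Python 3.11.15, numpy 2.4.6, pandas 2.3.3 and scipy 1.17.1 were used. Pericentromeres were fixed windows per chromosome.

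The regions, gene lists and tests were chosen with earlier results of these data known. Named are the 20 regions with the best worst rank by fold over the lists, the 5 highest and 5 lowest differences of mean log2 fold, up to 3 of each gene list by that rank, the regions nearest the distance limits and genes with 2 regions. AT4G29780 was named after its values were seen. The planned count of sequence motifs was not run, since no genome was used here. Alternatives tried were other thresholds, overlaps, region values and list lengths, and leaving out each library.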

Additional observations from a re-analysis of the deposited data

How the results depend on the processing

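Of 90 alternative values for 8 results, 60 kept their direction and side of the threshold or moved within the spread, 26 moved and 4 turned. A −log10 q of at least 5 left 101 regions, of which 69.3% had both tagged folds above both Col-0 folds and 24.8% lay upstream, at a median percentile of 70.8. A fold of at least 2 left 38 regions, with 65.8%, 21.1% and 73.8% for the same 3 values. Lists cut to equal length left 200 regions, with 86.5% above and a percentile of 70.5. These settings select peaks by strength or drop more peaks from the CND1-FLAG lists, so their values cannot be read apart from the cut. A reciprocal overlap of 50% gave a percentile of 59.2 and a median width of 663 bp, and taking every peak at 1 to 3 kb gave a width of 730 bp. Leaving out 1 library at a time gave 571 to 660 regions. The share above then sets 1 library of a genotype against 2 of the other, which is easier to meet than both against both. It ranged from 67.8% to 71.5%, the percentile from 53.28 to 54.47 and the width from 704 to 725 bp. The genotype difference of fold over list median turned to -1.50e-05 with the mean over a region's peaks and to -0.00137 with equal lists, and ranged from -0.00714 to 0.0182 without 1 library. It was 0.129 at a −log10 q of at least 5 and 0.181 at a fold of at least 2. At these settings and with equal lists the genotype difference of fold was 0.483, 0.459 and 0.548, and the difference to the other 4-list regions was -0.144, -0.407 and -0.0819. The cause of these shifts was not tested beyond what each setting removes. Replicate numbers did not pair the libraries (correlation of deviations -0.022), and a replicate block left the differences at 0.276 and 0.0094, with an exact permutation p of 0.5, the smallest 2 pairs allow, for both. The count of sequence motifs was not run. The 2 libraries per genotype allow no p below 0.333, so a genotype difference could not pass a threshold of 0.05.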
